A study of Mus musculus with 6 samples.

Results

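Immediate early genes are switched on within minutes of a stimulus without new protein synthesis, and the taking apart of a tissue is one such stimulus. A set of 10 early and dissociation-induced genes was examined in cells sorted by the *Pdx1-Cre* lineage label: *Fos*, *Fosb*, *Jun*, *Junb*, *Egr1*, *Atf3*, *Ier2*, *Dusp1*, *Hspa1a* and *Hspa1b*. They were picked by symbol so that handling of the cells could be compared between libraries and genotypes. All 10 were among the 55414 genes of the deposited count table, and 9 of the 10, all but *Fosb*, were among the 16353 genes that passed a filter on low counts.

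The cells came from mouse embryos at E10.5. Males with *Pdx1-Cre* and 1 deleted copy of the *mir-302* microRNA cluster were mated with females that also lacked 1 copy and carried a tdTomato reporter that Cre switches on. WT embryos kept the cluster, KO embryos (*mir-302*-/-) lacked it in every cell, and both carried *Pdx1-Cre* and tdTomato. The trunk was dissociated with warm trypsin, and the sorted cells went straight into Trizol LS. The Cre transgene marks all descendants of cells that expressed it, so the sort was for a lineage and not for a current cell type. There were 3 WT and 3 KO libraries, and values are listed below in the order of replicates 1, 2 and 3 unless another order is stated. How many embryos went into each was not given in the sources used here, so p-values measure only the spread between these libraries.

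Total counts ran from 17352498 in KO replicate 2 to 26634523 in KO replicate 1, and WT replicate 2 had the lowest total of the WT libraries, 17859163. Genes of the mitochondrial genome took 0.345%, 0.418% and 0.442% of counts in WT and 0.225%, 0.290% and 0.223% in KO. The genotypes did not overlap in this share, and its part in the values below was not tested. The 5 microRNA genes of the cluster had at most 2 counts in any library of either genotype and could not check the labels. All 12 markers of pancreatic progenitors were detected, with a summed level of 872 to 1115 CPM (counts scaled to a common library total), and *Pdx1* itself lay between 73.1 and 108 CPM. The progenitor factors *Ptf1a* and *Nkx6-1* were under 5 CPM in all 6 libraries. Blood, mesenchyme and endocrine markers differed between libraries of the same genotype. In particular, the summed level of 8 red blood cell markers was 2.12, 3.18 and 15954 CPM across WT libraries and 6391, 0.969 and 337 CPM across KO libraries. Summed levels ran from 1029 to 1456 CPM for gut endoderm markers, from 635 to 2012 CPM for liver markers and from 1.99 to 112 CPM for endothelial markers. They stayed under 36 CPM for neural and under 5 CPM for myeloid markers. *Sox17* made up most of the endothelial sum in every library but KO replicate 2, with 108 of 112 CPM in KO replicate 3. The liver markers did not move together. In KO replicate 2 *Afp* was at its lowest of the 6 libraries, 102 CPM, and *Ttr* at its highest, 323 CPM. In bulk RNA, fewer cells of a type and less RNA per cell cannot be told apart.

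FOS and FOSB pair with JUN and JUNB to form the transcription factor AP-1. EGR1 is a zinc finger factor induced by MAP kinase signalling through serum response factor, and ATF3 is a stress-induced factor of the same bZIP class as AP-1. IER2 is a nuclear protein that appears early after growth factor stimulation, and DUSP1 is the phosphatase that switches MAP kinases off again. *Hspa1a* and *Hspa1b* encode the inducible chaperone Hsp70 and are switched on by heat shock factor 1 when proteins misfold. In sorted cells, transcripts of these genes can come from the state of the cells in the embryo and from what they met on the way to lysis.

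Promoter sequences are shown for *Fos*, *Junb* and *Dusp1*, whose transcripts were highest in replicate 2 of each genotype, and for the pair *Hspa1a* and *Hspa1b*, whose transcripts were highest in replicate 1 of each and whose reads are hard to tell apart. Each holds the 150 bases before the start of the gene, 5′ to 3′, from RefSeq on GRCm38.p6, which had an entry for 8 of the 10 genes. *Egr1* and *Ier2* had no entry, so their promoters were not searched. Capitals mark TGACG, the core of the cAMP response element (TGACGTCA), the TATA box (TATAAA), the CCAAT box (CCAAT, or ATTGG on the other strand) and the paired heat shock unit GAANNTTC.
Fos (chr12:85473740-85473889, plus strand): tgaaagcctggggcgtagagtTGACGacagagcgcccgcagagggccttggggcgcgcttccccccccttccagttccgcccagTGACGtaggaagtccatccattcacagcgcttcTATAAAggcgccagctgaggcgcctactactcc
Junb (chr8:84978749-84978898, minus strand): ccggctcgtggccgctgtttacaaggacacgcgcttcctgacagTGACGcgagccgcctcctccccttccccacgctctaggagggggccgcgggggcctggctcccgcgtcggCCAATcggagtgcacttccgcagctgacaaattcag
Dusp1 (chr17:26508473-26508622, minus strand): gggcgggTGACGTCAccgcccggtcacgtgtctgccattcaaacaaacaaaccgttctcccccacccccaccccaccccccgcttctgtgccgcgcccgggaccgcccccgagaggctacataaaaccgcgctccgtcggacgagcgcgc
Hspa1a (chr17:34972157-34972306, minus strand): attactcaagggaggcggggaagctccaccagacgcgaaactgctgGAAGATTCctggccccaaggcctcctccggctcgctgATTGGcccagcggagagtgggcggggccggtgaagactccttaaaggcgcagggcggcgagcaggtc
Hspa1b (chr17:34959239-34959388, minus strand): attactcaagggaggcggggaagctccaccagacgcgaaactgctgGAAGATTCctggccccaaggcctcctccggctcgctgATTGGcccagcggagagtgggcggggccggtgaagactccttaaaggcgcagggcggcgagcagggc
In windows of 250 bases and on both strands, TGACG occurred in 17.8% of 32851 promoters, and in those of *Fos*, *Fosb*, *Junb*, *Atf3* and *Dusp1*. *Fos* held it at positions -129 and -66 from the start. The whole TGACGTCA, found in 1.55% of promoters, was present in *Dusp1*. GAANNTTC, found in 6.69%, was present in *Hspa1a*, *Hspa1b* and *Jun*, and CCAAT, found in 33.8%, in those same genes and *Junb*. TATAAA, in 12.4%, was found only in *Fos* among the 8 windows. The AP-1 site TGACTCA, in 4.46%, and the CArG box, in 1.47%, were in none of the 8 windows. Sites further upstream than 250 bases were not searched. The windows of *Hspa1a* and *Hspa1b* differed at 3 of 250 bases. These are matches of letters, and binding was not measured.

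Levels per length spanned a wide range. *Ier2* had the highest mean, 135 CPM per kilobase of exon, with a range of 116 to 180.3 over the 6 libraries, and *Jun* followed at 48.1 (38.8 to 58.8), so these genes did not overlap. *Fos* (12.9, range 3.47 to 27.9), *Egr1* (11.9, range 2.40 to 24.4) and *Dusp1* (10.8, range 6.68 to 15.6) came next, and their ranges overlapped one another. *Junb* lay at 5.83 CPM per kilobase and *Hspa1b* at 2.08, while *Atf3* (0.766), *Hspa1a* (0.710) and *Fosb* (0.0438) were lowest. The CPM of the 10 genes summed to 468, 625 and 367 in the WT libraries, against 424, 707 and 418 in the KO libraries. The sum was therefore highest in replicate 2 of each genotype, and the genotypes overlapped.

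**Figure D1:**
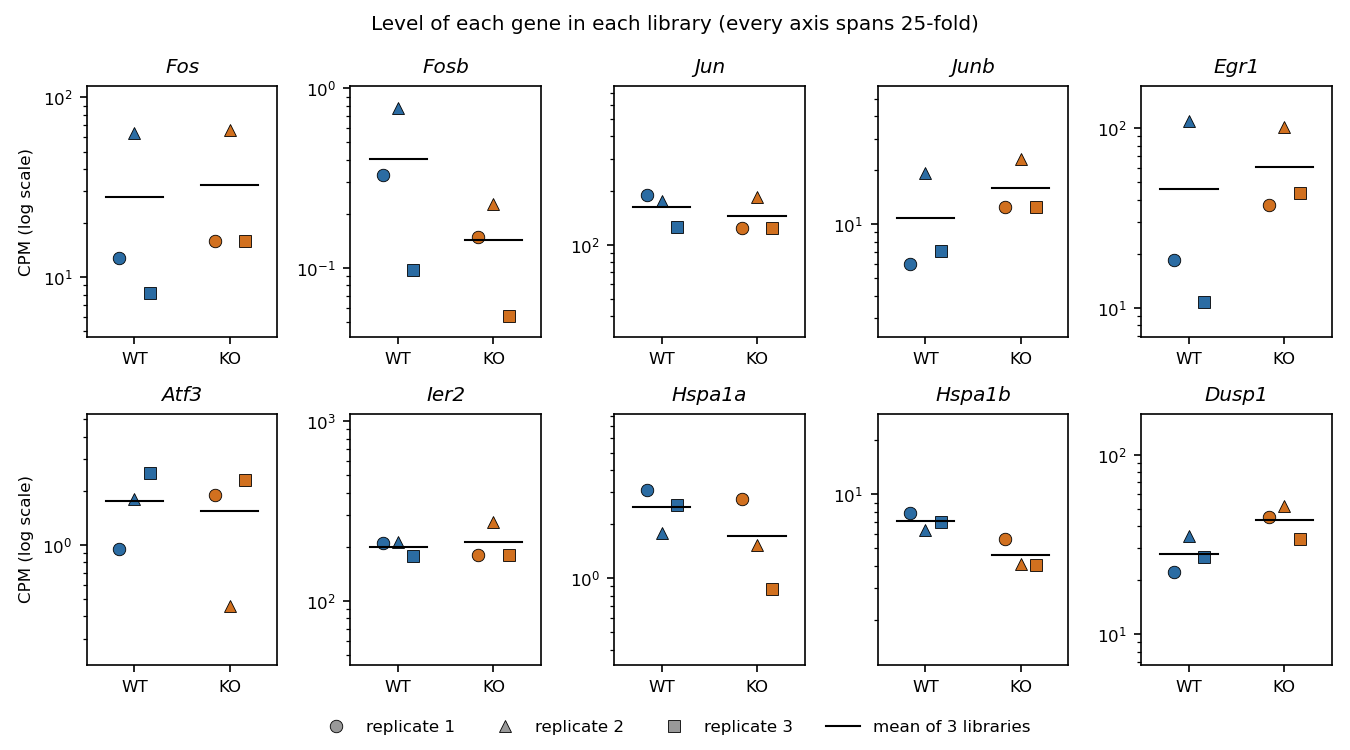
Level of each of the 10 genes in CPM (vertical axis, log scale, each spanning 25-fold) in the 3 WT (blue) and 3 KO (orange) libraries, with the symbol giving the replicate number and the line the mean of 3 libraries. *Fos*, *Egr1* and *Junb* stand apart in replicate 2 of both genotypes (triangles), *Fos* at 63.0 and 65.7 CPM, whereas *Jun* and *Ier2* stay within 1.55-fold over the 6 libraries.

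*Fos* differed far more between libraries of 1 genotype than between genotypes. *Fos* (ENSMUSG00000021250.14) was at 12.8, 63.0 and 8.16 CPM across WT libraries and at 15.9, 65.7 and 15.9 CPM across KO libraries. It was high in replicate 2 of each genotype and low in the other 4 libraries, and the genotypes overlapped. WT averaged 28.0 ± 30.4 CPM and KO 32.5 ± 28.7 CPM (SD, n = 3 for each genotype), and the fitted difference was 1.16-fold (95% confidence interval 0.285 to 4.74). The log2 fold change of KO against WT was 0.22 (standard error 0.86, adjusted p = 0.968, edgeR quasi-likelihood test with Benjamini-Hochberg adjustment over all genes tested). The highest library exceeded the lowest 7.73-fold in WT and 4.13-fold in KO. Counting error was small beside this, with an exact Poisson interval of 59.4 to 66.8 CPM in WT replicate 2 and 11.3 to 14.4 CPM in WT replicate 1. Reads carry no molecular identifiers, and such intervals cover counting error only.

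*Egr1* was high in the same libraries. *Egr1* (ENSMUSG00000038418.8) was at 18.5, 109 and 10.8 CPM across WT libraries and at 37.1, 101 and 43.8 CPM in the KO libraries. Both replicate 2 libraries lay above the other 4, and WT replicate 1 and WT replicate 3 lay below all KO libraries. The log2 fold change was 0.39 (standard error 0.83, 95% confidence interval -1.56 to 2.35), with an adjusted p of 0.937 by the same edgeR test. Within genotypes the SD of log2 CPM was 1.37 for *Fos* and 1.35 for *Egr1*, each larger than that of 99.0% of the 11402 genes with a mean of at least 5 CPM. Leaving out 1 library turned the direction of both genes. Without KO replicate 2 their log2 fold changes were -0.79 and -0.17, and without WT replicate 2 they were 1.66 and 2.07. *Fos* also turned without WT replicate 1 (-0.13) and without WT replicate 3 (-0.20), and *Egr1* without WT replicate 3 (-0.05). Without both replicate 2 libraries, a choice made after their values were seen, the values were 0.62 for *Fos* and 1.48 for *Egr1* (edgeR adjusted p = 0.0977 for *Egr1*).

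*Fosb* (ENSMUSG00000003545.4), the close relative of *Fos*, was close to the limit of counting. It had 7, 14 and 2 counts in the WT libraries, and 4, 4 and 1 in the KO libraries. It was too low to be tested, and the count of 14 in WT replicate 2 was the highest of the 6.

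*Junb*, a JUN family gene, shared the pattern at a smaller size. *Junb* (ENSMUSG00000052837.8) was at 5.99, 19.2 and 7.14 CPM across WT libraries and at 12.4, 23.1 and 12.5 CPM in the KO libraries. Replicate 2 was again highest in each genotype, and the KO libraries other than replicate 2 lay between WT replicate 3 and WT replicate 2. It had a log2 fold change of 0.57 (standard error 0.48, edgeR adjusted p = 0.794), with 0.23 without KO replicate 2, 1.31 without WT replicate 2 and 0.94 without both (edgeR adjusted p = 0.172 for the last). *Jun* (ENSMUSG00000052684.5), by contrast, was at 188, 174 and 125 CPM in WT and 124, 185 and 124 CPM in KO. It varied 1.51-fold in all, was highest in WT replicate 1 and KO replicate 2, and overlapped between genotypes. Its log2 fold change was -0.17 (standard error 0.20, edgeR adjusted p = 0.871), with a 95% confidence interval of -0.65 to 0.31, and it was -0.37 without KO replicate 2 and -0.04 without KO replicate 3.

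*Ier2* (ENSMUSG00000053560.6) was abundant everywhere, at 209, 214 and 177 CPM in WT and 179.6, 274 and 181 CPM in KO. KO replicate 2 stood above the others, WT replicate 2 exceeded WT replicate 1 only slightly, and the genotypes overlapped. The log2 fold change was 0.08 (standard error 0.18, 95% confidence interval -0.33 to 0.50, edgeR adjusted p = 0.938), and it was -0.13 without KO replicate 2 and -0.08 without both replicate 2 libraries. *Atf3* (ENSMUSG00000026628.14) rested on 8 to 52 counts per library. It was at 0.943, 1.79 and 2.52 CPM in WT and at 1.90, 0.456 and 2.29 CPM in KO. It was lowest in KO replicate 2, where *Fos* was highest, and highest in replicate 3 of each genotype. Its log2 fold change was -0.17 (standard error 0.62, edgeR adjusted p = 0.966), turning to 0.27 without KO replicate 2, 0.22 without WT replicate 3 and 0.28 without both replicate 2 libraries.

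Of the 9 tested genes, *Dusp1* had the largest positive log2 fold change in the fit to all 6 libraries. *Dusp1* (ENSMUSG00000024190.8) was at 22.1, 35.0 and 26.8 CPM across WT libraries and at 44.7, 51.5 and 34.0 CPM in the KO libraries. The genotypes overlapped only through WT replicate 2 and KO replicate 3, and replicate 2 was again highest in each genotype. WT averaged 28.0 ± 6.51 CPM and KO 43.4 ± 8.82 CPM (SD, n = 3 for each genotype), and the fitted difference was 1.55-fold (95% confidence interval 1.09 to 2.22). The log2 fold change of 0.64 (standard error 0.22) had an unadjusted p of 0.0222 and an adjusted p of 0.339 by the edgeR quasi-likelihood test, and an adjusted p of 0.0674 with DESeq2. It ranged from 0.49 to 0.85 when each library was left out in turn. The gene did not pass the threshold of 0.05 on the adjusted p with either tool.

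The Hsp70 genes did not follow *Fos*. *Hspa1b* (ENSMUSG00000090877.4) was at 7.82, 6.31 and 7.04 CPM in WT and at 5.63, 4.10 and 4.03 CPM in KO. All KO libraries lay below all WT libraries, and replicate 1 was highest in each genotype. For KO against WT the log2 fold change was -0.62 (standard error 0.22, unadjusted p = 0.0272, adjusted p = 0.373 by edgeR and 0.348 by DESeq2), and it did not pass. *Hspa1a* (ENSMUSG00000091971.4) was at 3.11, 1.79 and 2.57 CPM in WT and at 2.76, 1.54 and 0.871 CPM in KO, from 16 to 74 counts per library. Replicate 1 was highest in each genotype, and the genotypes overlapped. The difference of *Hspa1a* was -0.52 on the log2 scale (standard error 0.46, edgeR adjusted p = 0.811), and it was -1.03 without KO replicate 1 and -0.17 without KO replicate 3. The transcripts share long stretches: 38.1% of the 150-base windows of *Hspa1a* also occur in *Hspa1b*, and 40.5% of those of *Hspa1b* occur in *Hspa1a*, so that the split of counts between them is uncertain. Summed to 1 gene, they were at 10.9, 8.10 and 9.61 CPM in WT and at 8.39, 5.64 and 4.90 CPM in KO, with a log2 fold change of -0.59 (standard error 0.25, edgeR adjusted p = 0.482). The KO libraries lay lower in the sum, but WT replicate 2 at 8.10 CPM was below KO replicate 1 at 8.39 CPM.

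**Figure D2:**
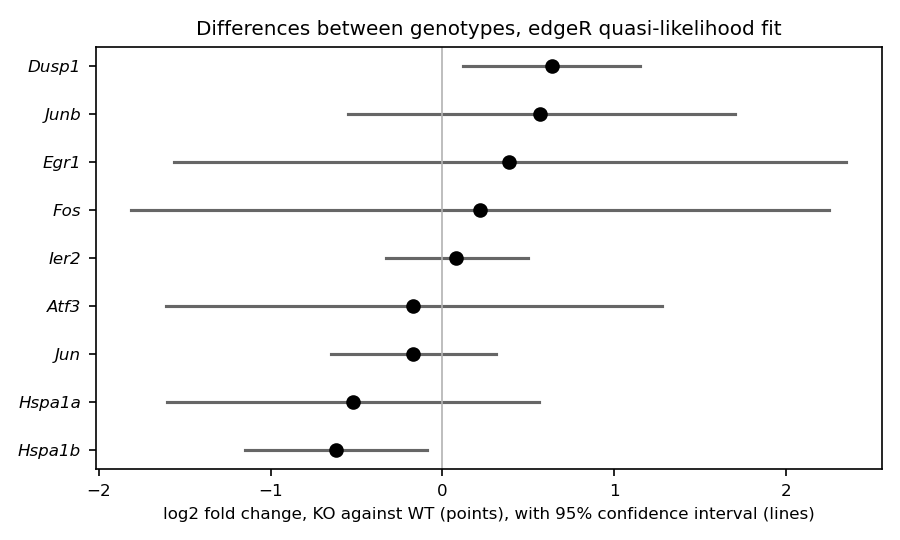
Log2 fold change of KO against WT (horizontal axis) of the 9 tested genes from the edgeR quasi-likelihood fit, with points for the estimates and lines for 95% confidence intervals. The intervals of *Fos* (-1.81 to 2.25) and *Egr1* (-1.56 to 2.35) are the widest, and those of *Dusp1* and *Hspa1b* exclude 0 before adjustment.

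Between genotypes, 0 of the 9 tested genes passed an adjusted p of 0.05 by edgeR's quasi-likelihood test, beside 0 of all 16353 genes (0%), and 0 passed with DESeq2, which called 4.87% of the 14353 genes it gave an adjusted p. At an unadjusted p under 0.05, *Dusp1* was higher in KO, beside 6.42% of all genes tested, and *Hspa1b* was lower, beside 3.97%. In *Hspa1b* alone the 3 KO libraries lay below the 3 WT libraries, as they did in 7.99% of all genes. In no member did the KO libraries all lie above the WT libraries, as they did in 8.36% of all genes. Of the 9 genes, 5 had a positive and 4 a negative log2 fold change. Their median was 0.08, beside -0.02 over all genes tested, and it ran from -0.17 to 0.28 over the alternatives tried. For a single value, an exact permutation test with 3 libraries a group gives 0.1 as its smallest p.

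Between libraries of 1 genotype some of the genes spread widely. The median SD of log2 CPM within genotypes was 0.63 over the 9 genes and 0.23 over all genes tested. The SD was 1.37 for *Fos*, 1.35 for *Egr1*, 0.99 for *Atf3*, 0.73 for *Junb* and 0.63 for *Hspa1a*. Counting error adds to it in *Atf3* (8 to 52 counts per library) and *Hspa1a* (16 to 74). *Jun* (0.32), *Dusp1* (0.32), *Ier2* (0.27) and *Hspa1b* (0.22) lay nearer the median of all genes. *Fos*, *Junb*, *Egr1*, *Ier2* and *Dusp1*, 5 of the 9 (55.6%), were highest in replicate 2 of both genotypes, a pattern seen in 13.4% of all genes tested. It was noticed after the values were seen and has no test. *Hspa1a* and *Hspa1b* were highest in replicate 1 of both genotypes, as were 10.9% of all genes, and *Atf3* in replicate 3 of both, as were 11.7%. Nothing in the labels ties libraries of the same number together. The labels also give each library a code whose meaning is not stated, and only WT replicate 2 and KO replicate 1 share its number. Those libraries were unlike each other, with *Fos* at 63.0 and 15.9 CPM and *Egr1* at 109 and 37.1 CPM.

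Other values moved with *Fos* and *Egr1*. The summed level of 8 endocrine markers was highest in the same libraries, at 1093, 5085 and 3861 CPM across WT libraries and 2609.9, 5626 and 1950.1 CPM in the KO libraries, and 6 of the 7 tested markers were highest in replicate 2 of both genotypes. *Gcg*, which encodes glucagon, made up most of that sum, with 899.7, 4578 and 3444 CPM in WT and 2283, 5047 and 1714 CPM in KO. *Gcg* was thus at 3444 CPM in WT replicate 3, the library with the lowest *Fos*. The summed level of 8 mesenchyme markers was lowest in the same libraries, at 652, 272 and 1211 CPM in WT and 1119, 128 and 1129 CPM in KO. In KO replicate 2 the collagen genes *Col1a1* and *Col3a1* had 0 counts, as had *Twist1* and *Prrx1*. The collagen gene *Col1a2* was at 34.9 CPM in that library, *Vim* at 81.1 CPM, *Pdgfrb* at 11.3 CPM and *Pdgfra* at 0.912 CPM. Total counts were lowest in replicate 2 of each genotype, too. Being highest in replicate 2 of both genotypes was not particular to endocrine markers. Summed progenitor markers, at 995 and 1115 CPM there, and neural markers, at 24.3 and 35.7 CPM, were also highest. Summed liver markers were highest of WT in WT replicate 2 (1924 CPM) and lowest of KO in KO replicate 2 (635 CPM). The part of these markers and of depth in the values of *Fos* and *Egr1* was not tested.

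**Figure D3:**
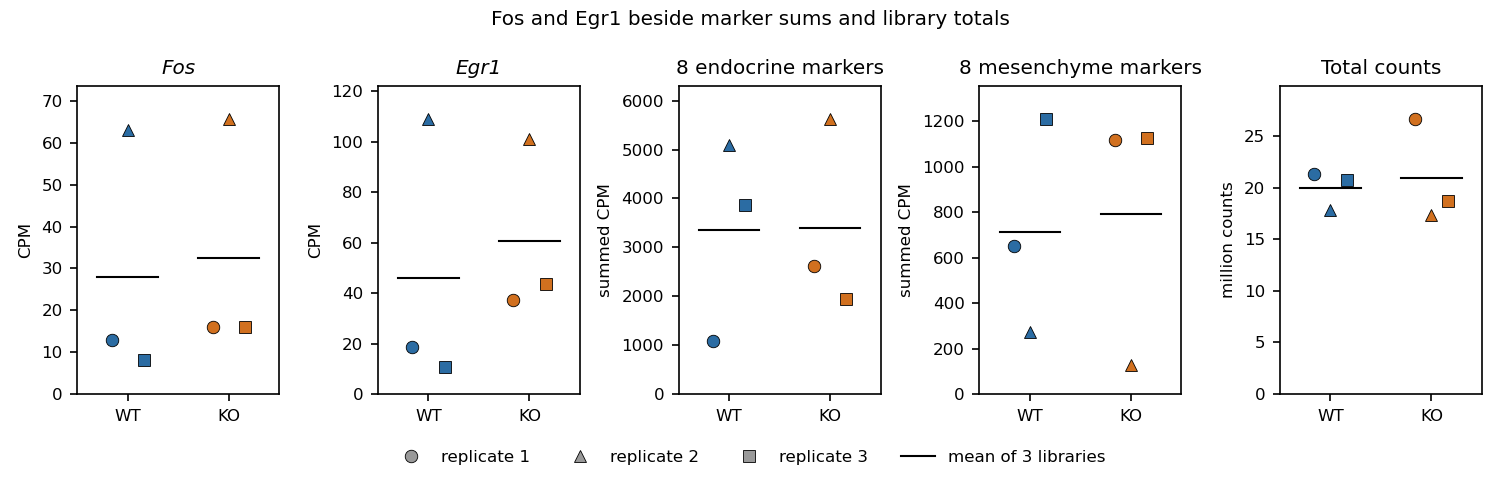
From left to right, *Fos* and *Egr1* in CPM, the summed CPM of 8 endocrine and of 8 mesenchyme markers, and total counts (in the unit on the axis), each by genotype with symbols for the replicate number and lines for the mean of 3 libraries. Replicate 2 of both genotypes (triangles) is highest for *Fos*, *Egr1* and the endocrine sum, and lowest for the mesenchyme sum (272 and 128 CPM) and total counts.

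Among 46 other immediate early genes, 39 were tested. With edgeR 0 passed and 6 reached an unadjusted p under 0.05, all of them higher in KO, beside 6.42% of all genes. DESeq2 called 4, *Zfp36l2*, *Jund*, *Dusp5* and *Mcl1*, all higher in KO, beside 4.87% of all genes called in either direction. Over the 39 genes the median log2 fold change was 0.13. *Zfp36l2*, which encodes an mRNA decay factor, was at 8.77, 13.3 and 6.94 CPM in WT and at 30.5, 26.0 and 17.6 CPM in KO, without overlap (log2 fold change 1.36, standard error 0.30, adjusted p = 0.147 by edgeR and 2.52e-04 by DESeq2). *Jund*, the third JUN family gene, was at 0.283, 0.838 and 0.728 CPM in WT and at 2.94, 2.68 and 1.36 CPM in KO (log2 fold change 1.92, adjusted p = 0.200 by edgeR and 0.0380 by DESeq2). Neither gene was highest in replicate 2 of both genotypes.

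Within this list, 7 of 39 genes (17.9%) were highest in replicate 2 of both genotypes, close to the 13.4% of all genes tested. *Egr2*, the nearest relative of *Egr1* in the list, was at 0.141, 9.61 and 0.486 CPM in WT and at 0.857, 3.08 and 0.599 CPM in KO. *Btg2*, an antiproliferative early gene, was at 40.5, 86.1 and 49.9 CPM in WT and at 54.1, 101 and 59.2 CPM in KO. Both genes stood out in replicate 2 of each genotype, and their genotypes overlapped. *Arc*, *Zfp36*, *Rhob*, *Per1* and *Ier5l* completed the 7. They were listed after their values were seen. The most abundant genes per length, the growth factor targets *Dusp6* and *Ccn1*, had log2 fold changes of 0.01 and 0.18, and neither was highest in replicate 2 of both genotypes.

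**Figure D4:**
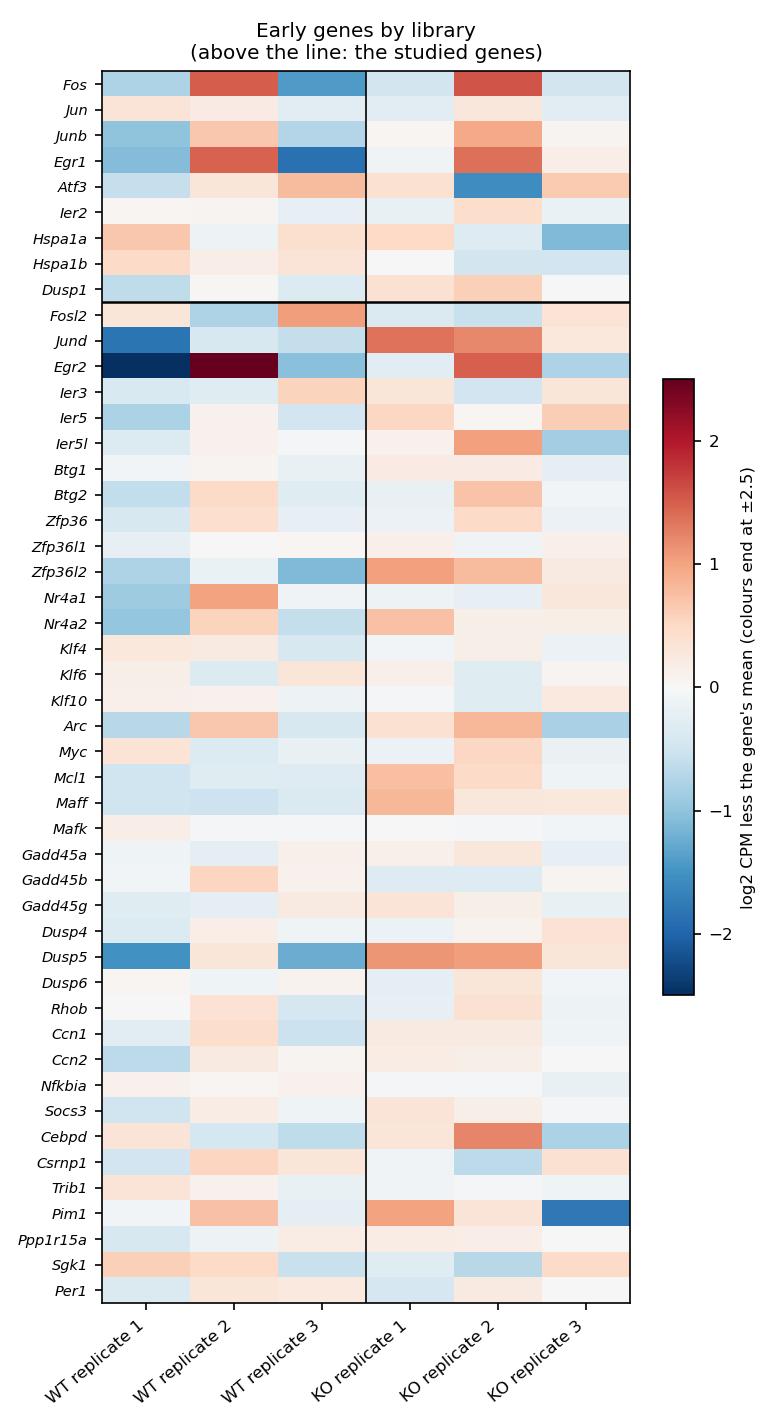
Log2 CPM of each gene less its mean over the 6 libraries (colour, ending at ±2.5), with libraries as columns, WT left and KO right of the vertical line. The 9 tested genes described here lie above the horizontal line and the 39 other tested immediate early genes below it, and *Fos*, *Egr1* and *Egr2* are red in replicate 2 of both genotypes while most genes below the line are pale there.

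All 19 kinases and factors listed upstream of the immediate early genes were tested. With edgeR 0 passed and 5 reached an unadjusted p under 0.05, all higher in KO, beside the same 6.42% of all genes. The genes that DESeq2 called included *Mapkapk2*, *Srf*, *Rps6ka1* and *Mapk14*. *Srf*, the serum response factor that drives *Fos* and *Egr1*, was at 3.63, 6.54 and 3.40 CPM in WT and at 16.1, 12.6 and 12.2 CPM in KO. All KO libraries were above all WT libraries, with a log2 difference of 1.60 (standard error 0.29, adjusted p = 0.132 by edgeR and 2.64e-05 by DESeq2). *Mapkapk2*, a kinase downstream of p38, differed by 1.37 on the log2 scale (standard error 0.25, adjusted p = 0.132 by edgeR and 2.80e-06 by DESeq2). The median of the 19 genes was 0.03.

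Of 26 heat shock factors, chaperones and co-chaperones outside the Hsp70 pair, 25 were tested, 13 with positive and 12 with negative log2 fold changes and a median of 0.01. With edgeR 0 passed, and at an unadjusted p under 0.05 1 was higher and 2 were lower in KO, beside 6.42% and 3.97% of all genes. *Hsp90aa1*, the inducible cytosolic Hsp90 gene, was at 826, 752 and 778 CPM in WT and at 606, 554 and 517 CPM in KO. Its libraries did not overlap between genotypes, with a log2 difference of -0.49 (standard error 0.09, adjusted p = 0.132 by edgeR and 8.40e-04 by DESeq2). The co-chaperone gene *Bag1* differed by 0.88 on the log2 scale (adjusted p = 0.173 by edgeR and 0.00167 by DESeq2). *Hsf1*, the main heat shock factor, differed by 0.13 (edgeR adjusted p = 0.558). The constitutive chaperone gene *Hspa8* was the most abundant of the list at 1054 CPM per kilobase and had a log2 fold change of -0.02. In this list 7 of 25 genes were highest in replicate 1 of both genotypes, beside 10.9% of all genes tested, and 2 in replicate 2 of both, beside 13.4%.

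GC content moved with the difference between genotypes. A run of 200 bases that was 75% or more G and C occurred in a transcript of 26.3% of the 13845 tested genes with a protein-coding transcript, and in 90.5% of those that DESeq2 called higher in KO. Genes with the stretch had a median log2 fold change of 0.13 and the others of -0.04. All 13 genes of the lists that DESeq2 called higher in KO had it, among them *Srf*, *Mapkapk2*, *Zfp36l2* and *Jund*. Of the members, *Egr1* (80% GC in its richest stretch) and *Dusp1* (75.5%) had it, and *Fos*, *Junb*, *Jun*, *Ier2*, *Atf3*, *Hspa1a* and *Hspa1b* did not. This comparison was added after the data were seen, and its part in the values of *Dusp1* and *Egr1* was not tested.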

How the data were processed

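mRNA was measured in sorted *Pdx1-Cre* lineage cells at E10.5 in 3 WT and 3 KO libraries, grouped by the genotype and number in the labels. cDNA was made with SMART-seq v4 and sequenced as paired ends. Per the study's methods and the submitters' processing notes, the authors aligned reads to GRCm39 with STAR, used GenomicAlignments to count them on genes, and deposited the raw counts. The annotation and the handling of strand and of shared reads are not given in the sources used here, so counts of *Hspa1a* and *Hspa1b* and of overlapping genes are uncertain.

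Members and lists were chosen with earlier results of these data known. Symbols were found for 94% of identifiers. All 55414 genes entered edgeR 4.0.16 (R 4.3.3) with filterByExpr, TMM, glmQLFit and glmQLFTest at their defaults and genotype as the only term, and p-values were adjusted by Benjamini-Hochberg over 16353 genes. Standard errors were derived from the F statistic, with 4 residual and 3.26 prior degrees of freedom. DESeq2 1.42.0, the tool of the study, was an alternative, beside other normalizations, filters, leaving out libraries, a replicate block and a term for the leading digit of the library's code. CPM used TMM factors, and levels per kilobase used exon lengths of GENCODE M21 (GRCm38). Besides the 10 members, named genes are those of each list with the smallest edgeR p in each direction (2 each) and the highest CPM per kilobase (2), the 5 most like the members, genes of the lists that DESeq2 called, named after their values were seen, and those said to be chosen after their values were seen. Some genes under this rule are not reported here. Counts limit the precision of low genes.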

Additional observations from a re-analysis of the deposited data

How the results depend on the processing

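Over 16 alternatives, 131 of 141 values of single members kept their direction and their side of the threshold, and 0 members passed under any. When 1 library was left out in turn, log2 fold changes ran from -0.79 to 1.66 for *Fos*, from -0.17 to 2.07 for *Egr1*, from -0.51 to 0.27 for *Atf3* and from -0.13 to 0.22 for *Ier2*, and turned without WT replicate 1 (*Fos* -0.13), WT replicate 3 (*Fos* -0.20, *Egr1* -0.05, *Atf3* 0.22) and KO replicate 2 (*Fos*, *Egr1*, *Atf3* and *Ier2*). Without both replicate 2 libraries *Atf3* was at 0.28 and *Ier2* at -0.08. The cause was not tested. The median of the members ran from -0.17 to 0.22 when 1 library was left out and was below 0 without WT replicate 1, WT replicate 3 or KO replicate 2, against 0.08 with all libraries. Adjusted p-values of *Dusp1* ran from 0.0674 to 0.688 and those of *Hspa1b* from 0.333 to 0.725.

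Over all genes, DESeq2 called 699, 606 of them higher in KO, edgeR without the filter on low counts called 264 (241 higher) and edgeR without WT replicate 2 called 217 (213 higher), beside 0 under each of the other alternatives. Whether the replicate numbers pair the libraries could not be decided from the counts. The correlation of deviations from the group means was -0.22, 0.24 and 0.08 for numbers 1, 2 and 3. WT replicate 3 correlated best with KO replicate 1 (0.34). Deviations within a group of 3 libraries sum to 0, so these correlations constrain one another. With the replicate block, 0 genes were called and the log2 fold changes were 0.44 for *Fos*, 0.95 for *Egr1* and 0.64 for *Dusp1*. Counts limit *Fosb*, *Atf3* and *Hspa1a*, which had 1 to 74 counts per library.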

Other observations

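Of 17 genes of the integrated stress response and of the endoplasmic reticulum chaperones, 16 were tested, with a median log2 fold change of -0.02. With edgeR 0 passed, and 1 was higher and 1 lower in KO at an unadjusted p under 0.05 (6.42% and 3.97% of all genes). DESeq2 called 1, higher in KO, beside 4.87% of all genes called in either direction. *Atf4*, the factor at the centre of that response, was at 121, 104 and 127 CPM in WT and at 87.6, 96.9 and 88.2 CPM in KO, all KO libraries lying below all WT libraries (log2 fold change -0.37, edgeR adjusted p = 0.192). *Eif2ak3*, the kinase PERK, had a log2 fold change of 1.29 (adjusted p = 0.217 by edgeR and 0.00974 by DESeq2), and the chaperone gene *Hspa5* one of 0.20.

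Of 12 oxidative stress and metallothionein genes, 11 were tested, with a median log2 fold change of -0.05. With edgeR 0 passed, and 2 were higher in KO at an unadjusted p under 0.05 (6.42% of all genes). DESeq2 called 2, higher in KO, beside 4.87% of all genes called in either direction. *Gclc*, which encodes the catalytic subunit of the first enzyme of glutathione synthesis, was at 7.68, 15.4 and 7.57 CPM in WT and at 54.0, 39.2 and 26.9 CPM in KO. All KO libraries lay above all WT libraries (log2 fold change 1.97, adjusted p = 0.132 by edgeR and 6.07e-07 by DESeq2). Its partner subunit *Gclm* had a log2 fold change of 1.63 (adjusted p = 0.160 by edgeR and 5.24e-04 by DESeq2). Both have the GC-rich stretch described above, whose part was not tested. *Mt1*, a metallothionein gene induced by metals and glucocorticoids, was at 350.4 CPM in WT replicate 3 and between 37.4 and 109.5 CPM in the other 5 libraries. WT replicate 3 also had the highest summed level of red blood cell markers, whose part in this value was not tested.

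Among the genes whose levels most resembled the mean centred log2 CPM of the 9 tested members, out of 9847 with a mean of at least 10 CPM, were *Tada3* (Pearson's r = 0.981 over 6 libraries), *Preb* (0.971), *Upp1* (0.956) and *Pld3* (0.955). An r of at least 0.9 was reached by 0.559% of these genes, and their median was -0.044. All points share the same 6 libraries. *Upp1*, which encodes a uridine phosphorylase, was at 10.7, 27.9 and 8.30 CPM in WT and 15.0, 19.1 and 14.5 CPM in KO, while *Tada3* moved only between 69.8 and 78.5 CPM. Of the members themselves, which enter the mean, *Fos* had an r of 0.955, *Egr1* 0.935 and *Junb* 0.903, and *Hspa1b* (-0.341) and *Atf3* (-0.375) had negative ones.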
